A study of Mus musculus with 6 samples.

Results

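Genes that glucocorticoid hormone is known to switch on, together with the metallothioneins, were followed around the day in mouse pancreatic islets. The set held 10 genes: the receptor gene Nr3c1, the receptor targets Tsc22d3, Fkbp5, Sgk1, Zbtb16 and Klf9, the growth and fuel regulators Cdkn1a and Pdk4, and the metallothioneins Mt1 and Mt2. Its members were the non-control probes annotated with a RefSeq transcript of one of these genes, which were 12 of 39429 probes, and all 10 genes were among the 24147 genes tested. Islets, the endocrine cell clusters of the pancreas, had been isolated with collagenase from male C57BL6 mice of 8 weeks on rodent chow. The lights were on for 12 h and off for 12 h, and zeitgeber time (ZT) counts the hours from lights on, so that ZT12 is lights off. Each of the 6 time points, ZT0, ZT4, ZT8, ZT12, ZT16 and ZT20, was 1 array of Cy3-labelled RNA from a pool of 3 to 5 mice. No time point had a replicate, so no pair of time points was tested and no level or difference between arrays has an error. The standard errors (SE) below are those of curves fitted across the 6 arrays.

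The glucocorticoid receptor is a transcription factor that chaperones hold in the cytoplasm until it binds its hormone, which in mice is corticosterone. It then enters the nucleus and binds DNA elements near its target genes. Corticosterone in nocturnal mice rises towards lights off, so an evening high is the reference pattern for receptor targets. The hormone itself was not measured here. Metallothioneins are small cysteine-rich proteins that bind zinc and copper, and their genes answer both to metals, through the factor MTF1, and to glucocorticoids.

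Levels are the log2 processed signal minus the 75th percentile of the same array, so a level of 0 is the brightness of that percentile and a step of 1 is 2-fold. Probes differ in brightness for reasons other than RNA amount, so levels were compared between arrays and not between genes. The share of 43020 spots well above background ran from 66.1% at ZT4 to 84.4% at ZT0, with 0 saturated spots. The probe used for each of the 10 genes was well above background on all 6 arrays. The ZT8, ZT12, ZT16 and ZT20 arrays were read in 1 scan, the ZT4 array in another on that date and that of ZT0 6 days later. Outlier spots numbered 1743 at ZT0 and 166 to 247 at the other times.

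The arrays also differed in the markers of the cells they held. Of 20 islet endocrine markers 19 were measured, and the median of their deviations, each taken from the gene's own mean level, ran from -2.58 at ZT12 and -1.28 at ZT4 to 1.23 at ZT16. In the level of all 19 summed, ZT12 was also lowest, at 8.89 on the log2 scale against 9.83 to 10.73 on the other 5 arrays. Of the 19 markers 16 were lowest at ZT12, among them Iapp, the gene for amylin, at 6.78 against 8.45 at ZT0. Ins2, a gene for insulin, did not follow the list, with levels of 6.83 at ZT0 and 7.32 at ZT12. All 12 lymphocyte markers, among them Cd3e and Cd79b, were well above background on every array. Their median deviation was 2.52 at ZT4 and 2.30 at ZT12 but -3.14 at ZT16 and -2.82 at ZT20, and their summed log2 level ran from 3.94 at ZT20 to 8.52 at ZT4. In such pools, fewer cells of a type and less RNA per cell cannot be told apart, and the part of cell make-up in the results below was not tested beyond the values given.

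Nr3c1, which encodes the glucocorticoid receptor, was among the least variable of all genes. Its level was 3.85 (ZT0), 3.80 (ZT4), 3.28 (ZT8), 3.78 (ZT12), 3.35 (ZT16) and 3.21 (ZT20). ZT0, ZT4 and ZT12 lay close together above the other 3 arrays, and the whole range of 0.64 log2 units, or 1.56-fold, was at the 2.05th percentile of the ranges of all genes. With arrays scaled by their median the range was 1.02. The ZT12 minus ZT0 difference was -0.08, and it took the other sign when arrays were scaled by their median (0.41) or when both Nr3c1 probes were averaged (0.18). The second probe was dim, from -4.35 at ZT8 to -3.43 at ZT12, and put ZT12 highest and ZT8 lowest. Over the 6 arrays Nr3c1 had an r of 0.81 with the mean of the stromal markers, 0.74 with the innate lymphocyte and 0.71 with the lymphocyte markers, as descriptions.

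**Figure D1:**
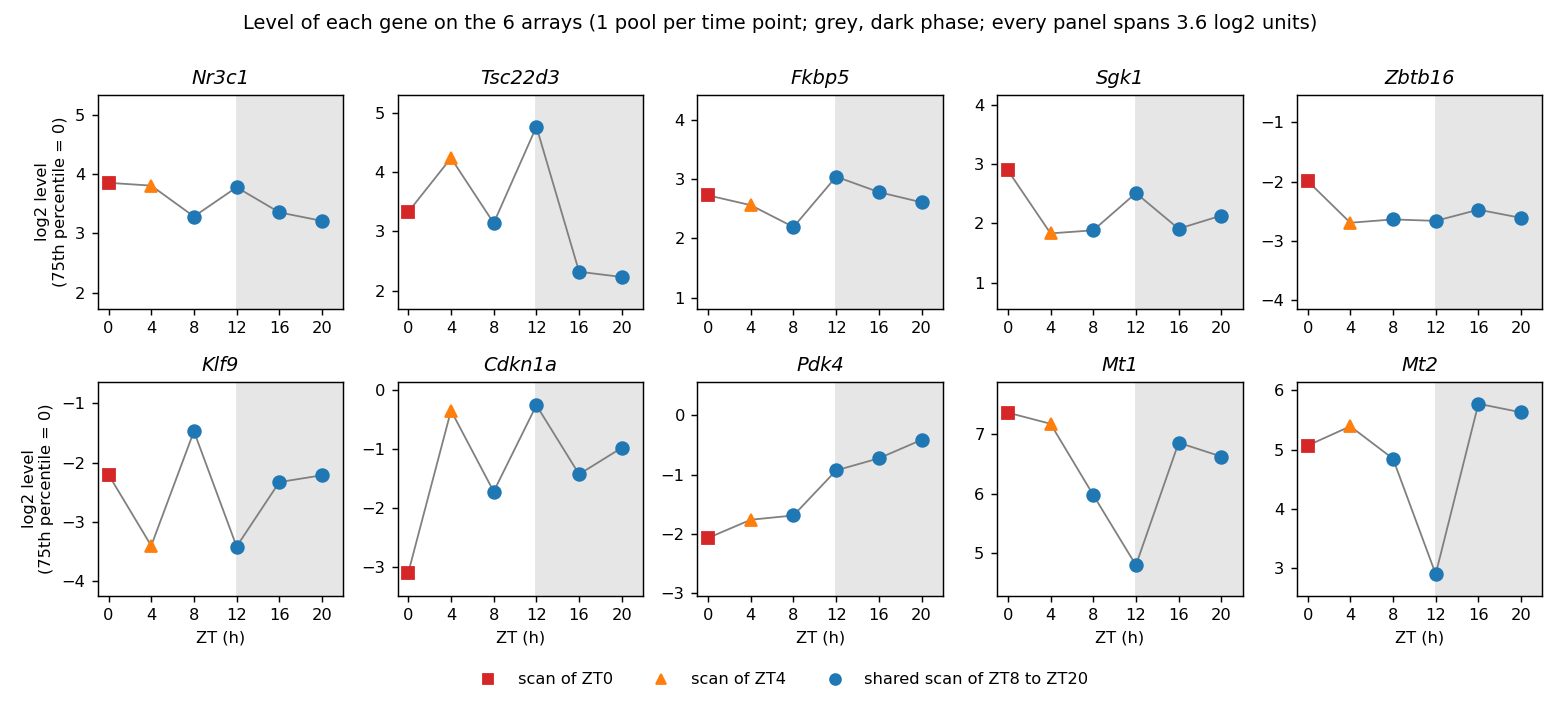
Level of each of the 10 genes (y axis, log2 units with the 75th percentile of the array at 0) against zeitgeber time in hours (x axis), 1 point per array, with marker shape and colour for the scan and grey for the dark phase; every panel spans the same number of log2 units. Tsc22d3 and Cdkn1a were highest at ZT12, with ZT4 next, Mt1 and Mt2 were lowest at ZT12, and Nr3c1, Fkbp5 and Zbtb16 stayed within a 2-fold range.

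Tsc22d3, which encodes GILZ, a leucine zipper protein that carries part of the anti-inflammatory action of glucocorticoids, had the widest range among the 5 receptor targets. Its level was 3.33 (ZT0), 4.24 (ZT4), 3.14 (ZT8), 4.77 (ZT12), 2.32 (ZT16) and 2.23 (ZT20). It was highest at ZT12 and next highest at ZT4, an array from the morning, and lowest at ZT16 and ZT20. The range was 2.53 log2 units (5.79-fold), at the 62.9th percentile of all genes, and ZT12 exceeded ZT0 by 1.44 (2.71-fold). On the 4 arrays of the shared scan ZT12 exceeded ZT8 by 1.62, ZT16 by 2.44 and ZT20 by 2.53. The 6 levels followed the mean of the lymphocyte markers with a Pearson's r of 0.95, that of the innate lymphocyte markers with 0.97 and that of the macrophage markers with 0.93, and ran against the islet endocrine markers with -0.94. These coefficients, each over 6 arrays and given as descriptions, rest on values from the same arrays.

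Fkbp5 encodes a co-chaperone that lowers the affinity of the receptor for its hormone and is widely used as a readout of receptor activity. Its level was 2.72 (ZT0), 2.56 (ZT4), 2.19 (ZT8), 3.04 (ZT12), 2.78 (ZT16) and 2.61 (ZT20). ZT12 was highest and ZT8 lowest, but the range of 0.85 (1.8-fold) was at the 5.79th percentile of all genes. With median scaling the range was 1.35. ZT12 exceeded ZT0 by 0.31, and by 0.18 to 0.80 over 8 other settings of scaling, background, filter and probe choice. In the authors' deposited values ZT12 was again highest, at 13.4, and ZT4 lowest, at 12.7. Its largest correlation with a marker list was -0.84, with duct markers, and that with lymphocyte markers was 0.02.

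Sgk1, a kinase gene that controls ion transport and is induced by both corticosteroid receptors, did not have its high in the evening. Its level was 2.89 (ZT0), 1.83 (ZT4), 1.88 (ZT8), 2.51 (ZT12), 1.91 (ZT16) and 2.13 (ZT20). ZT0 was highest, with ZT12 next, and the other 4 arrays lay between 1.83 and 2.13. The ZT12 minus ZT0 difference was -0.38 and changed sign with median scaling (0.10). Within the shared scan, where ZT0 takes no part, ZT12 was highest and exceeded the other 3 arrays by 0.38 to 0.63.

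Of the 6 promoter windows that RefSeq gives for Sgk1 on GRCm38.p6 (each 250 bases before to 50 after a transcript start), 1 holds the consensus word of the glucocorticoid response element, GNACA and TGTNC with 3 bases between them, which reads the same on both strands. The match begins 188 bases before that start and is shown because it is 1 of only 2 matches among the members. It lies at chr10:21993692-21993724 on the plus strand, 5′ to 3′, with the matched word in capitals:

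Sgk1: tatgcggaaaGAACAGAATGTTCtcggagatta

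The same word occurs in 156 of 32851 RefSeq promoter windows of this length (0.475%), searched on both strands. The table held windows for 8 of the 10 genes, 16 windows in all. A match is a run of letters and not a measured binding site, and a window without one says nothing about binding elsewhere.

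Zbtb16 encodes the zinc finger repressor PLZF, which glucocorticoids induce strongly in many tissues. Its level was -1.99 (ZT0), -2.69 (ZT4), -2.64 (ZT8), -2.66 (ZT12), -2.47 (ZT16) and -2.61 (ZT20). ZT0 stood above the rest, and the 4 arrays of the shared scan differed by no more than 0.19. The range of 0.71 (1.63-fold) was at the 2.98th percentile of all genes. Both Zbtb16 (r = -0.91) and Sgk1 (r = -0.92) ran against the red blood cell markers over the 6 arrays, which had their lowest median deviation at ZT0 (-1.35) and of which 4 of 5 were measured.

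Klf9 encodes a Krüppel-like repressor that is both a receptor target and a clock-controlled gene. Its level was -2.20 (ZT0), -3.40 (ZT4), -1.47 (ZT8), -3.41 (ZT12), -2.33 (ZT16) and -2.21 (ZT20). ZT4 and ZT12 were low by about the same amount, ZT8 was high, and the range was 1.94 (3.84-fold). ZT12 lay below ZT0 by 1.21 (2.32-fold) and below the other arrays of its scan by 1.09 to 1.94. The authors' deposited values also had ZT8 highest (8.83), with ZT4 (7.33) and ZT12 (7.36) lowest. Over the 6 arrays Klf9 followed the duct markers with an r of 0.87, the endothelial markers with 0.84 and the islet endocrine markers with 0.81.

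Cdkn1a encodes p21, an inhibitor of cyclin-dependent kinases that p53 and glucocorticoids both induce. Its level was -3.09 (ZT0), -0.35 (ZT4), -1.72 (ZT8), -0.27 (ZT12), -1.43 (ZT16) and -0.98 (ZT20). ZT12 and ZT4 were highest and almost equal, and ZT0 was lowest. ZT12 exceeded ZT0 by 2.82 (7.07-fold), the largest such difference among the 10 genes. Within its own scan ZT12 exceeded ZT8 by 1.45, ZT16 by 1.16 and ZT20 by 0.72, each of them less than over ZT0. The probe used averaged 10 spots. A second probe of another transcript was dimmer, not well above background at ZT4, and ran from -6.15 at ZT0 to -4.84 at ZT16. With both probes averaged, ZT12 exceeded ZT0 by 1.74. Over the 6 arrays Cdkn1a had an r of 0.76 with the red blood cell markers, -0.68 with the islet endocrine markers and 0.28 with the lymphocyte markers.

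Pdk4 encodes a kinase that shuts down pyruvate dehydrogenase and so shifts cells from glucose to fat as fuel, and fasting and glucocorticoids raise it. Its level was -2.07 (ZT0), -1.76 (ZT4), -1.69 (ZT8), -0.93 (ZT12), -0.73 (ZT16) and -0.42 (ZT20). Each array was above the one before it in zeitgeber time, so the high came at ZT20, in the late dark phase, and not at lights off. ZT12 exceeded ZT0 by 1.14 (2.20-fold), and the range was 1.65 (3.15-fold). In the authors' deposited values ZT0 (8.26) and ZT20 (10.05) were again the extremes, but ZT4 (8.87) lay above ZT8 (8.61). Pdk4 ran against the stromal markers with an r of -0.80 over 6 arrays, and its r with the islet endocrine markers was 0.07. With the hepatocyte markers, of which 9 of 10 were measured, its r was 0.60. Their median deviation was 3.64 at ZT20 against -1.93 to -0.11 on the other arrays. The part of hepatocyte RNA in the high of ZT20 was not tested.

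The metallothioneins were lowest at ZT12. The level of Mt1 was 7.37 (ZT0), 7.18 (ZT4), 5.98 (ZT8), 4.79 (ZT12), 6.86 (ZT16) and 6.63 (ZT20). That of Mt2 was 5.07 (ZT0), 5.4 (ZT4), 4.85 (ZT8), 2.90 (ZT12), 5.78 (ZT16) and 5.63 (ZT20). For Mt1 the ZT12 array lay 1.18 below ZT8, the next lowest, and for Mt2 it lay 1.94 below ZT8. ZT0 exceeded ZT12 by 5.94-fold for Mt1 and by 4.49-fold for Mt2, and this direction held in 8 other settings of scaling, background, filter and probe choice (ZT12 minus ZT0 of -2.57 to -2.06 for Mt1 and -2.21 to -1.68 for Mt2). Which array was highest was less settled: ZT0 for Mt1 and ZT16 for Mt2 with 75th percentile scaling, and ZT16 for both, at 17.7 and 16.8, in the authors' deposited values.

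The 2 metallothionein genes lie next to each other on chromosome 8, and their RefSeq windows on GRCm38.p6 were searched for the same glucocorticoid word and for the core of the metal response element that MTF1 binds, TGCACNC or TGCGCNC, on both strands. The stretches upstream of the start that hold the matches are shown because these 2 genes share the low of ZT12, with both kinds of word in capitals, on the plus strand from chr8:94178985-94179088 for Mt1 and chr8:94172385-94172617 for Mt2, 5′ to 3′:

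Mt1: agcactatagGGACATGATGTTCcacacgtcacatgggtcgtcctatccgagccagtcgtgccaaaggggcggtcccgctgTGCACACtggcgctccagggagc

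Mt2: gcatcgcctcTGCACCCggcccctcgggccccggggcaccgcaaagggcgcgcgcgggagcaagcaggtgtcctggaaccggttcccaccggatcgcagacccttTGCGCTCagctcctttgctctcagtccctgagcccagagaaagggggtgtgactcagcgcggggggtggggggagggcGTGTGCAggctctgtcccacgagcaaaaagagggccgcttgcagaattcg

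In Mt1 the glucocorticoid word begins 94 bases before the start and a metal word 23 bases before it, and 2 further metal words follow the start. In Mt2 metal words begin 223, 128 and 50 bases before the start, the last of them read on the other strand, 1 more follows the start, and the window holds no glucocorticoid word. At least 1 metal word occurs in 25.7% of the 32851 windows and 4 or more in 0.517%. Among the 16 windows of the members, of which 6 are those of Sgk1, 3 held a metal word (1 each of Mt1, Mt2 and Sgk1) and 2 the glucocorticoid word (1 each of Mt1 and Sgk1). The E-box CACGTG, a word of the clock factors, was in 2 of the 16 (1 each of Sgk1 and Fkbp5), against 7.15% of all windows.

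Whether the 2 genes varied together was tested over the 6 arrays, with 1 relation computed. Pearson's r was 0.86 (exact permutation p = 0.0556) and Spearman's rho 0.49 (exact permutation p = 0.356). Without ZT12 and ZT8, the 2 arrays farthest from the median of Mt1, r was -0.86, so the relation rested on those arrays, and without ZT12 alone it was 0.30. In the authors' deposited values r was 0.96 (exact permutation p = 0.00694) and rho 0.94 (exact permutation p = 0.0167), and r was 0.83 without the 2 farthest arrays, ZT12 and ZT16. The low of ZT12 was shared on both scales, and the order of the other 5 arrays differed between them.

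**Figure D2:**
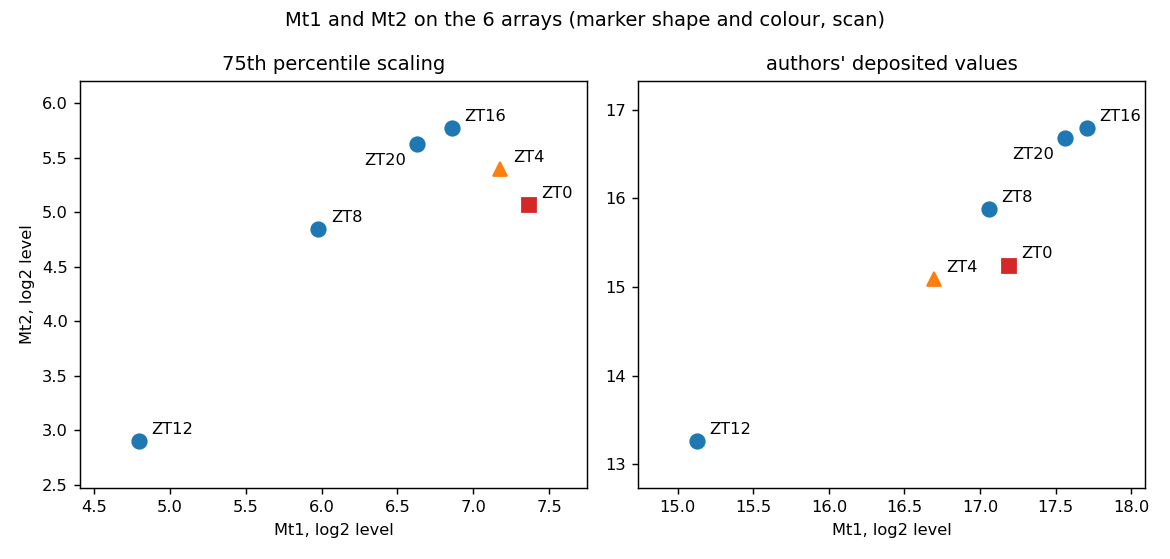
Log2 level of Mt2 (y axis) against that of Mt1 (x axis), 1 labelled point per array with marker shape and colour for the scan, with 75th percentile scaling on the left and the authors' deposited values on the right. ZT12 is the lower left point in both panels, and ZT0 and ZT4 change place among the rest, with a Pearson's r of 0.86 on the left and 0.96 on the right.

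Markers of other cells moved with the metallothioneins. All 9 acinar markers, among them Ctrb1 and Try5, were well above background on every array and lowest at ZT12, where their median deviation was -1.52 against -0.44 to 0.72 on the other arrays, and their summed log2 level ran from 8.56 at ZT12 to 10.54 at ZT4. Over the 6 arrays the r with the acinar markers was 0.90 for Mt1 and 0.92 for Mt2, and with the islet endocrine markers 0.64 and 0.80. The part of acinar RNA in the low of ZT12 was not tested.

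**Figure D3:**
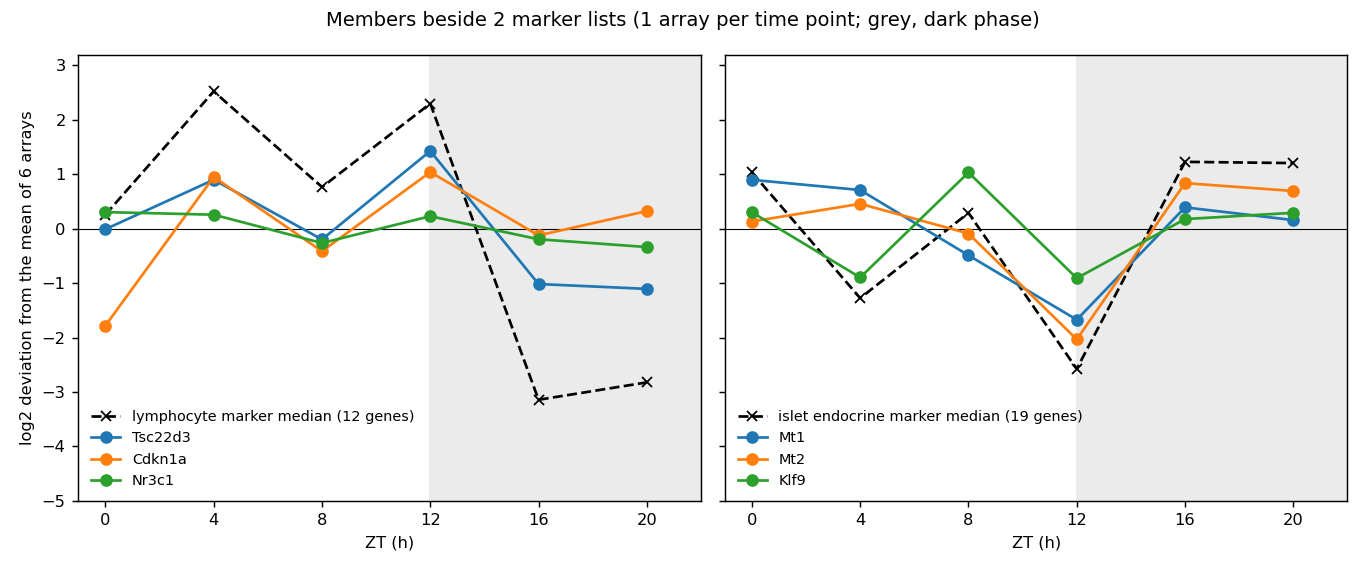
Deviation from the mean of the 6 arrays (y axis, log2 units) against zeitgeber time in hours (x axis, grey for the dark phase), 1 array per time point. The left panel sets Tsc22d3, Cdkn1a and Nr3c1 beside the median of the 12 lymphocyte markers (dashed), which is 2.52 at ZT4 and 2.30 at ZT12 (r of 0.95, 0.28 and 0.71 with its mean), and the right panel sets Mt1, Mt2 and Klf9 beside that of the 19 islet endocrine markers (dashed), which is lowest at ZT12 at -2.58.

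Read as a group against the evening reference, the 10 genes did not move one way. Between ZT12 and ZT0, 3 genes were at least 2-fold higher (Tsc22d3, Cdkn1a and Pdk4), as were 26% of all genes tested, and 3 were at least 2-fold lower (Klf9, Mt1 and Mt2), as were 26.1%. ZT0 was the highest of the 6 arrays for 4 genes (Nr3c1, Sgk1, Zbtb16 and Mt1; 21.1% of all genes), ZT12 for 3 (Tsc22d3, Fkbp5 and Cdkn1a; 15.4%), and ZT12 was the lowest for 3 (Klf9, Mt1 and Mt2; 22%). The range reached 2-fold in 7 of the 10, against 90% of all genes, with a median range of 1.8 log2 units in the set and 2.10 over all genes. With median scaling it reached 2-fold in 9 of the 10, Nr3c1 (1.02) and Fkbp5 (1.35) among them. The share of all genes on that scale is not given here. The median ZT12 minus ZT0 difference was -0.23 in the set and 0.06 over all genes. That of all genes was 0.54 with median scaling, 0.22 with quantile normalization, 0.23 in the authors' values and 0.20 after normexp background correction, so differences of this size depend on the scale. With those 4 settings the ZT12 minus ZT0 difference of Klf9 was -0.89 to -0.73, under 2-fold, and that of Pdk4 after normexp was 0.97.

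Within the shared scan the range reached 2-fold in 6 of the 10 genes (Tsc22d3, Klf9, Cdkn1a, Pdk4, Mt1 and Mt2), against 59% of all genes. ZT12 was the highest of the 4 arrays for Nr3c1, Tsc22d3, Fkbp5, Sgk1 and Cdkn1a, 5 of the 10 genes (35.7% of all genes), and the lowest for Zbtb16, Klf9, Mt1 and Mt2, 4 of the 10 (41.4%). For Nr3c1 the excess over the other arrays was 0.42 to 0.57, for Fkbp5 0.26 to 0.85 and for Zbtb16 the deficit was 0.02 to 0.19, all under 2-fold. Tsc22d3, Klf9, Mt1 and Mt2 differed at least 2-fold between ZT12 and each of the other 3 arrays of that scan. The share of all genes that did so is not given here, so this only describes these genes.

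**Figure D4:**
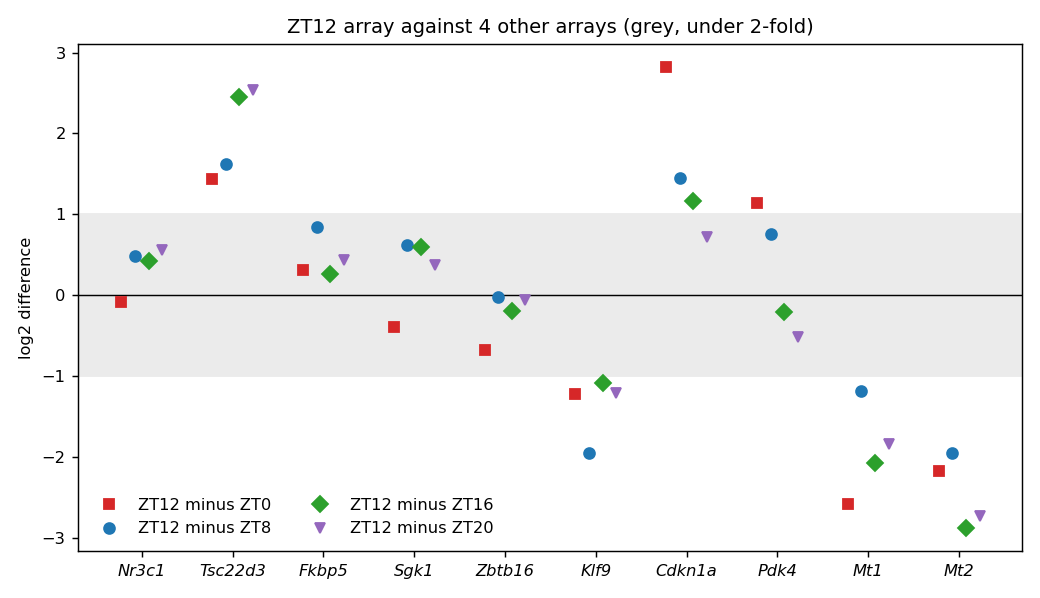
Log2 difference of the ZT12 array from the ZT0 array and from the other 3 arrays of its own scan (y axis) for each gene (x axis), 1 point per array pair, with grey for differences under 2-fold. Tsc22d3 lies above the grey band and Mt1, Mt2 and Klf9 below it for all 4 comparisons, while Nr3c1, Fkbp5, Sgk1 and Zbtb16 stay inside it.

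The same question was put to the 6 arrays together by 2 fits over the whole table. A cosine of 24 h with free phase was called at an adjusted p under 0.05 in 0 of the 10 genes and 0% of all genes (limma, smallest adjusted p 0.759), and at an unadjusted p under 0.05 in 0 of the 10, against 4.11% of all genes. A cosine with its peak set at ZT12, the evening pattern itself, was called at an adjusted p under 0.05 in 0 of the 10 and 0% of all genes (limma, smallest adjusted p 0.965), and at an unadjusted p under 0.05 in 1 of the 10, against 3.32%. That gene was Mt1, and its fitted ZT12 minus ZT0 difference was -2.04 ± 0.77 (SE), an evening low, with an adjusted p of 0.965 in limma over all genes. The coefficient was positive in 4 of the 10 genes (Tsc22d3, Fkbp5, Cdkn1a and Pdk4), against 50.8% of all genes.

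The fitted evening difference was 0.62 ± 1.1 (SE) for Tsc22d3, 0.14 ± 0.64 for Fkbp5, -0.31 ± 0.70 for Sgk1, -0.38 ± 0.62 for Zbtb16 and -0.20 ± 0.93 for Klf9. It was 1.28 ± 1.05 for Cdkn1a, 0.68 ± 0.82 for Pdk4, -0.18 ± 0.64 for Nr3c1 and -1.58 ± 1.0 for Mt2. Each of these 9 values lay within 2 SE of 0 so neither an evening rise nor an evening fall was detectable in them with 6 arrays. Mt1 kept its negative sign in all 19 alternatives of arrays, scaling and model that kept the peak at ZT12, from -2.44 to -1.07. In a fit with mean lymphocyte marker level as a further term the difference was 0.23 ± 0.62 (SE) for Tsc22d3, and with that of the islet endocrine markers it was -0.53 ± 0.69. With the same terms in turn it was -1.94 ± 0.71 and -1.67 ± 0.77 for Mt1 and -1.32 ± 0.80 and -0.78 ± 0.86 for Mt2. With scan as a further term, which leaves the 4 arrays of the shared scan to decide the value, it was 2.88 ± 1.31 for Tsc22d3 and -3.00 ± 1.54 for Mt2, the values farthest from 0 for these genes over the 19 alternatives. Taken 1 gene at a time over all 720 orders of the arrays, the exact two-sided permutation p was 0.0333 for Mt1, where the smallest that the design allows is 0.0111, and 0.20 to 0.822 for the other 9, with no adjustment over the 10 genes.

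**Figure D5:**
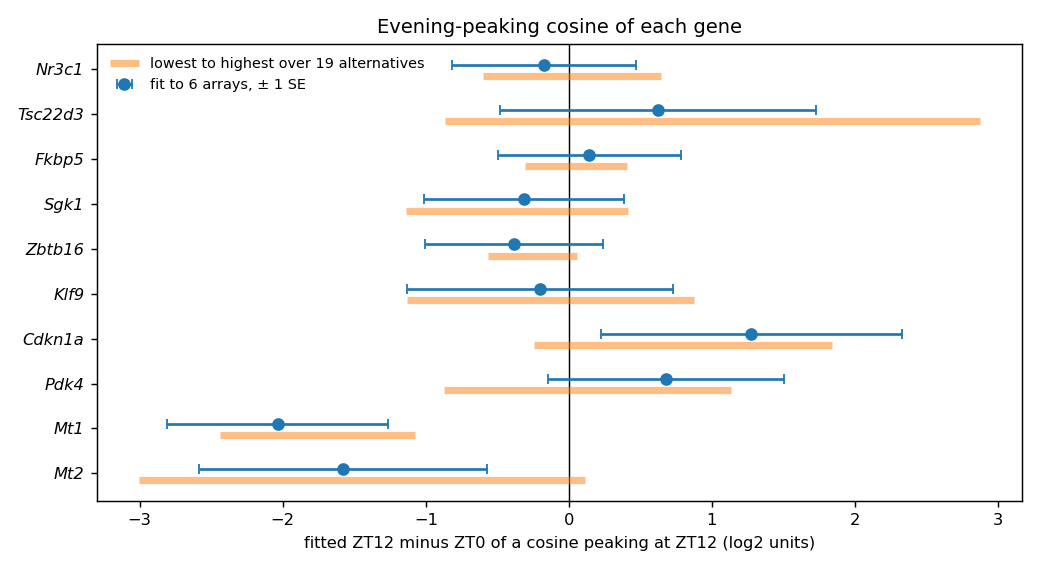
Fitted ZT12 minus ZT0 difference of a cosine peaking at ZT12 (x axis, log2 units) for each gene (y axis), with points and bars for the fit to 6 arrays ± 1 SE and the pale band for the lowest to highest value over 19 alternatives. The band of Mt1 alone stays on 1 side of 0, from -2.44 to -1.07.

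With free phase the fitted peak minus trough was largest in Mt1, at 2.05 ± 0.84 (SE) with a peak at ZT23.6, and in Tsc22d3, at 1.75 ± 0.99 with a peak at ZT7.39. Mt2 gave 1.71 ± 1.03 at ZT22.5, Pdk4 1.5 ± 0.73 at ZT16.2 and Cdkn1a 1.29 ± 1.11 at ZT11.4. The other 5 genes were between 0.28 ± 0.99 for Klf9 and 0.41 ± 0.69 for Zbtb16, and their fitted peak times are not given. The median over all genes was 1.33. Exact permutation p values ran from 0.133 for Mt1 to 0.933 for Klf9, where the smallest that the design allows is 0.0167. Without the ZT8 array Tsc22d3 gave 3.15 ± 0.92 (limma unadjusted p = 0.0431).

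Of 30 other receptor targets 29 were measured, all but Trim63, and 0 were called by either fit. Their coefficient of the evening cosine was positive in 14 and negative in 15, and 9 were at least 2-fold higher at ZT12 than at ZT0 (26% of all genes) while 5 were at least 2-fold lower (26.1% of all genes; among them Rhob, Rasd1, Pck1 and Per1, named after their values were seen; Pck1 was well above background on 3 arrays and Rasd1 on 4). The median ZT12 minus ZT0 difference was 0.22 and the median range 2.73 log2 units, against 0.06 and 2.10 over all genes. Nfkbia, the inhibitor of NF-kappa-B, had 5.41 at ZT4 and 5.23 at ZT12 against 2.18 to 3.78 on the others, and Glul, glutamine synthetase, ranged only from 2.92 at ZT12 to 4.10 at ZT4. Nfkbia thus had its highs on the same 2 arrays as Tsc22d3 and Cdkn1a. The lymphocyte markers were high on those arrays too, with a median deviation of 2.52 at ZT4 and 2.30 at ZT12. Part of the 29 targets had highs on those arrays and part did not. Ddit4 was 4.04 at ZT4 and 4.66 at ZT12 against 1.78 to 2.54 on the others. Per1 was 2.27 at ZT4 and lowest at ZT12 (1.71), both genes being named after their values were seen. Of the 29, 7 were highest at ZT12 (15.4% of all genes) and 5 were lowest there (22%).

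Of 16 genes for receptor chaperones, cofactors and steroid metabolism, 15 were measured, all but Hsd11b2, and 0 were called. Only Stip1, a co-chaperone, was at least 2-fold higher at ZT12 than at ZT0, while Ipo13 and Ncoa2 were lower. The chaperone genes Hsp90ab1 and Hsp90aa1 had their highest levels at ZT4 (7.04 and 6.08) and their lowest at ZT8 (5.72 and 4.83). Ipo13, an importin gene, was 2.18 at ZT12, against 6.06 at ZT0 and 4.3 to 5.69 on the others.

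All 18 metal-handling genes were measured and 0 were called. At ZT12 against ZT0, 3 were at least 2-fold higher (Mt4, Mt3 and Atp7a) and 3 lower (Slc30a8, Slc39a10 and Slc30a2). The zinc transporter of insulin granules, Slc30a8, had the low of ZT12 that Mt1 and Mt2 had, at 1.95 against 3.88 to 6.71, and it is also 1 of the islet endocrine markers. The copper chaperone Atox1 was highest at ZT4 (6.14), and the zinc importer Slc39a7 ran from 2.59 at ZT12 to 4.13 at ZT16. Mt3 and Mt4, the metallothioneins of brain and of stratified epithelium, were lowest at ZT0, at -3.57 and -6.04, with -1.87 and -3.64 at ZT12. Mtf1, the metal-sensing factor, was 0.57 at ZT12 and 0.81 at ZT0, with its low at ZT4 (-1.15).

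Of 16 p53 targets related to Cdkn1a, 15 were measured, all but Eda2r, 0 were called, and 3 were at least 2-fold higher (Pmaip1, Bbc3 and Aen) and 3 lower (Plk2, Sesn2 and Zmat3) at ZT12 than at ZT0. Aen, a nuclease gene, shared with Cdkn1a a low at ZT0 (1.69) and a high at ZT4 (3.81). Btg2, an antiproliferative gene, stayed between 3.18 and 3.88, and Mdm2, the ligase that degrades p53, between 2.0 and 3.0.

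All 17 genes of pyruvate dehydrogenase control and fat oxidation were measured and 0 were called, with 7 at least 2-fold higher at ZT12 than at ZT0 and 3 lower (Ppargc1a, Cpt2 and Ppara). The other kinases of the family did not share the order of Pdk4: Pdk1 and Pdk3 were highest at ZT12 (0.23 and 0.43) and Pdk2 at ZT16 (0.54). Pdhb, a subunit of the enzyme, stayed between 3.42 and 4.28, Acadl between 0.76 and 1.60, and Cpt2, which frees fatty acids from carnitine in mitochondria, ran from 1.72 at ZT12 to 3.25 at ZT0.

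For a time reference, 10 clock genes were measured and 0 were called. In the free-phase fit 2 of them (Nr1d1 and Dbp) had an unadjusted limma p under 0.05, against 4.11% of all genes. Nr1d1 was well above background on only 4 of the 6 arrays. Dbp, a clock output gene, was 3.42 to 3.95 from ZT0 to ZT12, 1.92 at ZT16 and 1.07 at ZT20. Tef stayed between 3.27 and 3.93 until ZT16 and was 2.41 at ZT20, and Nfil3 ran from -0.93 at ZT8 to 1.88 at ZT20. Of the glucocorticoid-responsive genes and metallothioneins, Tsc22d3 had ZT16 and ZT20 as its 2 lowest arrays, as Dbp did, and the other 9 did not.

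The genes most like each member were taken from 12113 or 12114 genes that had a symbol, were well above background on all 6 arrays and had a range of at least 2-fold, by Pearson's r over the 6 arrays, as a description. For Tsc22d3 they were Pip4k2b and Cep295 (r = 0.999 for each), with 484 genes above 0.95, the most of any member. For Fkbp5 they were Zfp51 (0.988) and Tmcc3 (0.875), with 1 gene above 0.95. Those of Pdk4 were Iars (0.985) and the clock repressor Cry1 (0.981), which ran from -4.19 at ZT0 to -2.15 at ZT20 with each array above the one before. Mt1 was nearest to Ap2a1 and to Snap25, a gene of the exocytosis machinery (0.995 for each), and Mt2 to Plekhh1 and Tmc4 (0.996 for each), with 29 and 116 genes above 0.95. Cdkn1a was nearest to Gm6042 (0.998) and Cyc1 (0.995), Nr3c1 to Nop2 and Dazap2 (0.992 for each) and Klf9 to Kmt2e (0.993) and Pdia4 (0.988). Sgk1 was nearest to Fnbp1l (0.983) and Elavl1 (0.976), and Zbtb16 to Nup93 (0.995) and Olfr1505 (0.993), all of them highest at ZT0. With 6 points such values arise for many genes, and the counts above 0.95 show how common the shape of each member was on these arrays.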

How the data were processed

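Per the file headers and the submitters' processing notes, Agilent Feature Extraction 11.0.1.1 made the 6 scanner files. Its processed signal is an intensity on a linear scale from which background had been subtracted and a spatial trend removed, per the file headers, and arrays were deposited without scaling to each other. The files also held median spot and background intensity and, as other columns, flags of 0 or 1 that the authors' software set. The authors' deposited value table held log2 values of 30170 probes (medians 8.62 to 8.63), each column correlating with its own array at 0.9987 to 0.9998. The steps behind it are not given in the sources used here.

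Control spots were left out, spots of a probe were averaged, and log2 values were taken relative to the 75th percentile of each array's non-control spots. Accessions gave symbols through RefSeq names of GRCm38.p6 for 27234 probes (69.1%). A probe was tested when well above background on at least 3 of 6 arrays and free of outlier calls, which removed 1415 probes. This left 28821 probes, and the brightest on average stood for each of 24147 genes. Cosines of 24 h, with free phase or a peak at ZT12, were fitted to all genes with limma 3.58.1 in R 4.3.3, with Benjamini-Hochberg adjustment over all genes and a threshold of 0.05. The code of the fits was checked on simulated cosines that held no differences of scan or cell make-up. That check says nothing about power on these arrays. Exact permutation tests used all 720 orders of the arrays. The number of arrays limits the precision.

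The 10 genes and all lists were chosen with earlier results of these data known. Named here were the 10 genes with every probe, genes of a list that passed a test and its 3 brightest on average, the 2 brightest of a cell type list, and for each of the 10 genes the 2 with the highest correlation. 1 gene that this rule names is not reported here. Genes named for an unadjusted p or a fold difference, and Mtf1, Mt3, Mt4 and the other Pdk genes, were picked after their values were seen. Alternatives were quantile and median scaling, the authors' values, normexp (offset 50) on the median spot signal because no mean signal was held, other filters and probe rules, outlier spots kept, an intensity trend, scan or marker means as covariates, peaks at ZT8 or ZT16, each array left out, and, chosen after seeing the data, ZT4 and ZT12 both left out.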

Additional observations from a re-analysis of the deposited data

How the results depend on the processing

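No member passed after adjustment over all genes under any alternative that was run. The count of 1 member with an unadjusted p under 0.05 for the cosine with a set peak was 0 with quantile normalization, median scaling, the authors' values, scan as a covariate, the islet endocrine marker mean as a covariate, a peak at ZT8 or ZT16, and ZT4 and ZT12 both left out. It was 0 to 1 with 1 array left out (0 without ZT0, ZT8 or ZT12), as was the free-phase count, which was 1 only without ZT8. The r of Mt1 with Mt2 was 0.962 with quantile normalization, 0.963 in the authors' values and 0.30 to 0.94 with 1 array left out. The sign of the evening cosine turned for Klf9 with quantile normalization (0.013), median scaling (0.040), the authors' values (0.013), the islet covariate (0.59) and a peak at ZT16 (0.064). It turned for Nr3c1 with median scaling (0.067), averaged probes (0.039), scan (0.64) and a peak at ZT8 (0.17), and for Sgk1 with scan (0.30) and a peak at ZT16 (0.0071). It turned for Pdk4 with scan (-0.88) and a peak at ZT8 (-0.82), for Tsc22d3 with the islet covariate (-0.53) and a peak at ZT16 (-1.10), and for Fkbp5 with a peak at ZT8 (-0.25). Without ZT4 and ZT12 it turned for Tsc22d3 (-0.40), Fkbp5 (-0.30), Klf9 (0.45) and Mt2 (0.11). With 1 array left out it ran from -0.87 (without ZT12) to 1.14 for Tsc22d3, -0.28 (without ZT12) to 0.36 for Fkbp5, -0.69 to 0.87 (without ZT12) for Klf9, where it was 0.065 without ZT0, and -2.45 to 0.081 (without ZT12) for Mt2. It ran from -0.94 to 0.41 (without ZT0) for Sgk1, -0.51 to 0.056 (without ZT0) for Zbtb16, -0.25 (without ZT0) to 1.84 for Cdkn1a, and -0.60 to 0.11 (without ZT0) for Nr3c1. The cause was not tested. The fit with scan as a term rests on the 4 arrays of the shared scan. A peak set at ZT8 or ZT16 asks for another contrast than the evening one. With ZT16 the coefficient was opposite in sign to the evening one for Klf9 (0.064), Sgk1 (0.0071) and Tsc22d3 (-1.10). With ZT8 it was so for Nr3c1 (0.17), Pdk4 (-0.82) and Fkbp5 (-0.25). Signal over background limits Cdkn1a, whose second probe was not well above background at ZT4. No paired analysis was possible because each time point had 1 array and no replicate number.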
